A study of Mus musculus with 6 samples.

Results

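A set of 45 genes that carry out or restrain programmed cell death, or that answer to the tumour suppressor p53, was followed in the whole oviduct of pregnant mice, comparing animals labelled Mettl3 d/d with animals labelled Mettl3 f/f. Members were chosen by gene symbol, and all 45 were found among the 55363 symbols of the tables. The 34 cell death genes comprised caspases, gasdermins, inflammasome sensors, the necroptosis kinases and their effector, the BCL2 family and the inhibitors of apoptosis, and the remaining 11 were p53 itself (Trp53), its inhibitor Mdm2 and targets of p53. Females aged 6 to 8 weeks were mated with fertile males and their oviducts were taken on gestational day 3, with 3 libraries per label. Mettl3 encodes the enzyme that writes N6-methyladenosine on RNA, and f/f is the customary mark of a conditional allele before Cre has cut it and d/d of the allele after deletion. The Cre driver, the cells it acts in and the exons removed are not given here by any source, and nothing says whether a library came from 1 animal or a pool.

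Apoptosis is an ordered form of cell death run by caspases, proteases that cut the cell apart from within. In its mitochondrial route BH3-only proteins free BAX and BAK, which open the outer mitochondrial membrane unless BCL2-type proteins hold them back, and in its receptor route caspase-8 is switched on at death receptors. Pyroptosis is a lytic, inflammatory death in which inflammasomes switch on caspase-1, or bacterial lipopolysaccharide switches on caspase-11 (the product of mouse Casp4), and gasdermin pores burst the cell. Necroptosis is a further lytic route, through the kinases RIPK1 and RIPK3 and the pore-forming MLKL, and p53 adds arrest, repair or death genes when DNA is damaged. Among the cells of a mucosa such as the oviduct lining, macrophages are a main site of the inflammasome genes.

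Levels are in FPKM, which counts sequenced fragments relative to transcript length and to the depth of the library. The steps of the lowest values implied 16600000 to 17800000 fragments per library. Mettl3 itself, the check on the labels, was at 11.8, 12.1 and 13.2 FPKM across f/f replicates 1 to 3, against 19.8, 20.3 and 24.5 across d/d replicates 1 to 3. It was thus 1.74-fold higher under the d/d label (log2 change 0.75, SE 0.12, limma adjusted p = 0.0145, or 0.0685 without f/f replicate 2), whereas a deletion would be looked for as a loss. A value per gene cannot show a missing exon, so every direction below rests on the labels. The oviduct marker Ovgp1, the oviductal glycoprotein, was between 2651 and 5690 FPKM in all 6 libraries. Of the 8 epithelial markers 2 were called higher and 1 lower, and of 5 stromal markers 1 higher and 1 lower. Over all features tested, 6.04% were called higher and 4.97% lower. Ciliated cell markers (9 genes found of 10 listed) summed to 85.6 to 277 FPKM in f/f, with replicate 1 highest, and between 29.9 and 140 in d/d, with replicate 1 lowest. Of the 8 tested, 0 were called higher and 1 lower, and their median log2 change was -0.95. Smooth muscle markers (6 genes, 0 called higher and 1 lower) summed to 1935 FPKM in f/f replicate 1 against 4427 and 4582 in the other f/f libraries, and to between 2412 and 3894 in d/d, and the summed uterine-end markers Hoxa10 and Hoxa11 were lowest in f/f replicate 1 (3.68 FPKM) and d/d replicate 1 (4.24). These 2 libraries stood apart from their groups, so the members' calls are also given without both. Ovary markers (6 genes) summed to 37.5 FPKM in f/f replicate 3, but to 8.33 and 6.28 in the remaining f/f libraries and 6.30 to 7.65 in d/d, so that f/f replicate 3 stood apart in them too. The members called without f/f replicate 3 were Casp1, Casp4 and Casp8, all higher, with a background of 2.09% higher and 1.30% lower (3.39% in all). Macrophage and myeloid markers (14 genes) summed to 466 to 575 FPKM in f/f and to 1242 to 1627 in d/d, groups that did not overlap, with 11 of 14 passing the test as higher and 0 as lower. Lysozyme 2 (Lyz2), the most abundant of them, averaged 138 ± 8.34 FPKM with the label f/f and 466 ± 79.8 with d/d (SD, n = 3 each). Cd163, on the same list, went the other way without overlap, from a mean of 2.74 FPKM in f/f to 1.46 in d/d. It did not pass (log2 change -0.59, limma adjusted p = 0.127). Neutrophil markers (8 genes; Mpo and Elane listed at 0 throughout) summed to 88.4, 5.76 and 3.58 FPKM with the f/f label and 83.1, 99.2 and 28.7 in d/d, and lymphocyte markers (11 genes) to 17.1 to 27.1 and 28.8 to 48.6. Of those tested, 1 of 5 neutrophil and 1 of 6 lymphocyte markers were called higher, and 0 of either list lower. In whole tissue, more cells of a type and more RNA per cell cannot be told apart, and the part of these marker differences in the members' changes was not tested.

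Several cell death genes ran higher under the d/d label, while 1 p53 target rose and 1 fell. Of the 45 members 44 had a mean of at least 1 FPKM and were tested, and Nlrc4 was below that filter. Among the 44, 8 rose (Casp1, Casp4, Casp8, Ripk1, Bak1, Bid, Bik and Aen) and 1 fell (Sesn1), at a limma adjusted p under 0.05 with Benjamini-Hochberg adjustment over all 15438 features tested. That is 18.2% higher and 2.27% lower, against a background over all features of 6.04% higher and 4.97% lower (11.0% in either direction). The members were chosen with earlier results of these data known, so the shares set beside a background here are only descriptive. The median log2 change of the members, d/d minus f/f on log2(FPKM + 1), was 0.25, against -0.01 over all features. The d/d values lay above all f/f values in 15 members (34.1%, background 18.1%) and below them in 8 (18.2%, background 17.4%), so the downward share was near its background. The 15 include Nlrp3 and Pmaip1, which met the filter through their d/d values. Of the 33 cell death members tested, 7 passed as higher and 0 as lower. With 3 libraries against 3, an exact two-sided permutation test of a single gene cannot give a p below 0.1, and each of the 9 members called had that p of 0.1. At an unadjusted p under 0.05 from limma stood 21 of the 44 (47.7%, background 29.6%), and these too include Nlrp3 and Pmaip1. Without the replicates 1 of f/f and d/d the members called were Casp1, Casp4, Casp8 and Bak1, all higher, with a background of 5.24% higher and 5.38% lower (10.6% in all).

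**Figure D1:**
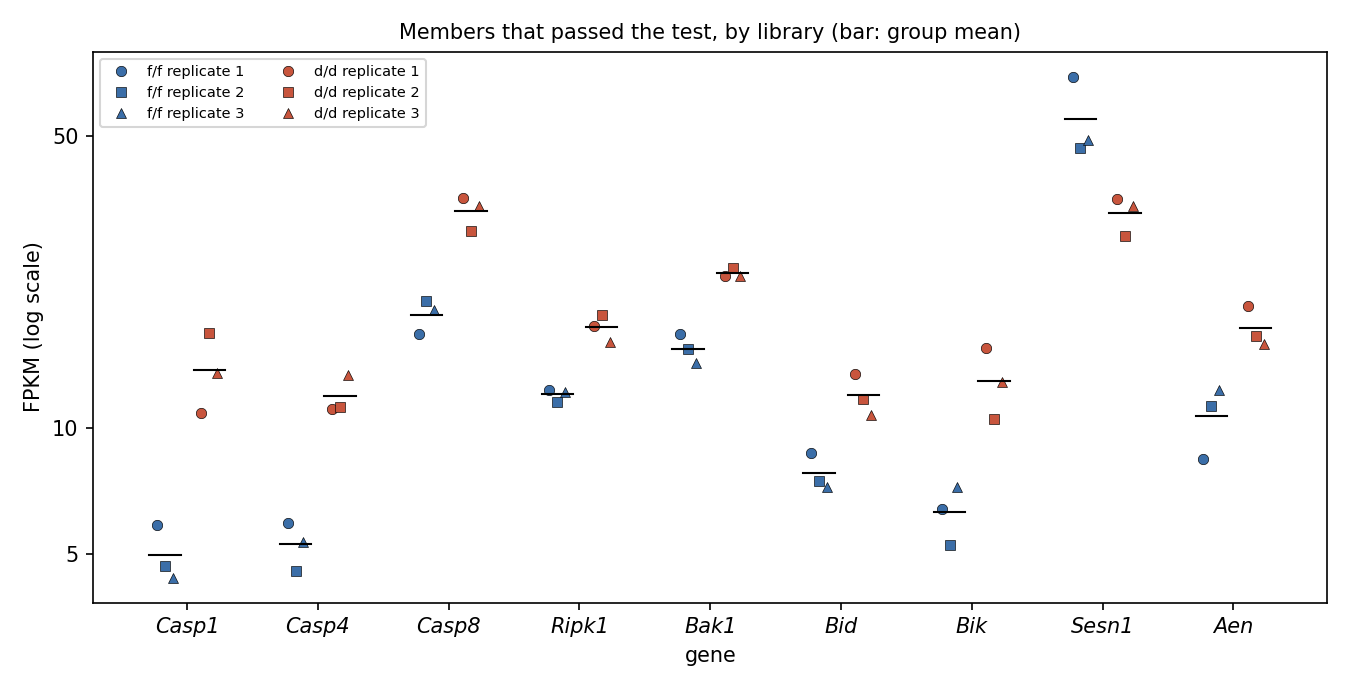
FPKM on a log axis in each of the 3 f/f (blue) and 3 d/d (red) libraries for the 9 members that passed the test, with marker shape for the replicate and a bar for the group mean. The d/d points lie above the f/f points in 8 genes and below them in Sesn1, whose f/f replicate 1 (69.4 FPKM) lies apart from the other f/f libraries.

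In GRCm38 (GENCODE M21) the called members outside the chromosome 9 caspase cluster lie at chr1:58795374-58847503 (Casp8), chr13:34002363-34037147 (Ripk1), chr17:27019810-27029009 (Bak1), chr6:120891930-120916853 (Bid), chr15:83526862-83544634 (Bik), chr7:78895854-78911209 (Aen) and chr10:41809935-41908424 (Sesn1). Bak1 and Bid are on the minus strand and the others on the plus strand, so the 9 calls come from 8 chromosomes.

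The inflammatory caspases showed the widest differences among members called, and they were not shared by the whole gene cluster. Casp1, the protease that inflammasomes switch on and that matures interleukin-1 beta and interleukin-18, was at 5.88, 4.67 and 4.40 FPKM across f/f replicates 1 to 3, against 10.9, 16.9 and 13.6 across d/d replicates 1 to 3. The lowest d/d value was thus well above the highest f/f value, and the mean went from 4.98 ± 0.788 to 13.8 ± 3.04 FPKM (SD, n = 3 each), a 2.77-fold higher level (log2 change 1.29, SE 0.19, limma adjusted p = 0.0119). Casp4, which encodes the intracellular lipopolysaccharide sensor caspase-11, was at 5.93, 4.55 and 5.34 FPKM across the f/f libraries, against 11.1, 11.2 and 13.4 across d/d. It was 2.26-fold higher in d/d (log2 change 1.04, SE 0.14, limma adjusted p = 0.0105), with the d/d libraries close together and clear of f/f. Casp12, a caspase studied in endoplasmic reticulum stress, was at 16.8, 16.9 and 14.8 FPKM across the f/f libraries, against 16.6, 18.3 and 11.7 across d/d. Its groups overlapped and its log2 change was -0.08 (95% interval from -0.49 to 0.33, limma adjusted p = 0.800). Casp12 was the most abundant of the 3 in f/f. Casp4 kept its call without any single library (limma adjusted p up to 0.0499), whereas Casp1 missed it without f/f replicate 2 (limma adjusted p = 0.0560). The macrophage and myeloid marker sum moved in the same direction as Casp1 and Casp4, with a median log2 change of its 14 genes of 1.26, and its part in these changes was not tested.

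These 3 caspase genes are neighbours on the plus strand of chromosome 9 (GENCODE M21, GRCm38). Casp1 (ENSMUSG00000025888) spans chr9:5298517-5307265, Casp4 (ENSMUSG00000033538) chr9:5308828-5336783 and Casp12 (ENSMUSG00000025887) chr9:5345430-5373032. Only 1562 bases separate Casp1 from Casp4 and 8646 bases separate Casp4 from Casp12, with 0 protein-coding genes in either gap. Their upstream sequences from RefSeq (GRCm38.p6) are shown because neighbouring genes differed in response. Each runs 5′ to 3′ from 250 bases before the RefSeq start up to the base before the start of the gene in GENCODE (250 bases for Casp1, 229 for Casp4 and 204 for Casp12), and capitals mark matches to the motifs described after them.
Casp1 (chr9:5298267-5298516, plus strand): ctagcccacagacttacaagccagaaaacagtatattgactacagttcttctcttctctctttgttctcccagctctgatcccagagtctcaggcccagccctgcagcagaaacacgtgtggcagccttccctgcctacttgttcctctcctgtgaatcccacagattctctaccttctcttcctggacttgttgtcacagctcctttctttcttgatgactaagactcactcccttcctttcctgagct
Casp4 (chr9:5308599-5308827, plus strand): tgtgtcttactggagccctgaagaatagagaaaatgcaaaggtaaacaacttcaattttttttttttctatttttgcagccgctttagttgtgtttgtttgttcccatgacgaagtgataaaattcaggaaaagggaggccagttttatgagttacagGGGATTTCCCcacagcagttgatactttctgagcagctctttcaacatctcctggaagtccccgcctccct
Casp12 (chr9:5345226-5345429, plus strand): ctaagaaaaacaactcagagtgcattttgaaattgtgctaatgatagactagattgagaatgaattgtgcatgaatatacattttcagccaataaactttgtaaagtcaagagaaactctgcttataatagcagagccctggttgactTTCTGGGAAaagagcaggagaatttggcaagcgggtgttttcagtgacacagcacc

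Motifs of the main inflammatory transcription factors were searched on both strands in the 250 bases before each RefSeq start. The NF-kB pattern (GGGA, any 4 bases, CC) was in the Casp4 window, 92 bases before the start, and in 17.6% of all 32851 promoter windows. The STAT pattern TTCNNNGAA was in the Casp12 window 2 times, 102 and 36 bases before the RefSeq start (the latter lies after the GENCODE start and is not printed), and in 7.02% of all windows. The interferon response pattern (GAAA, any 2 bases, GAAA) was in 0 of the 3 genes' windows and in 2.98% of all windows. No capitals appear in the Casp1 sequence, which held none of the 3 patterns. Over all 57 windows of the 40 members in the promoter table, NF-kB, STAT and interferon patterns were in 9 (15.8%), 2 (3.51%) and 1 (1.75%). The shares over all windows were higher, but counts this small do not set the members apart. A match is a run of letters and does not show that a factor binds there.

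**Figure D2:**
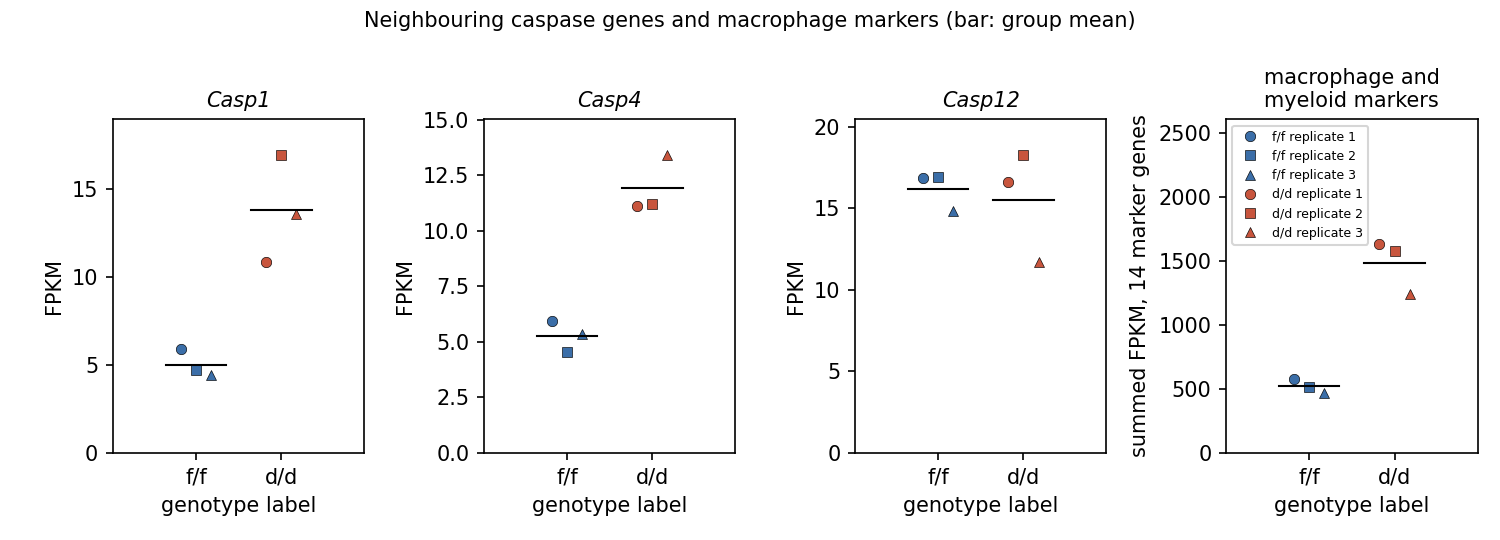
FPKM in each library for the neighbouring genes Casp1, Casp4 and Casp12, and the FPKM sum of 14 macrophage and myeloid markers, each axis from 0, with a bar for the group mean. The d/d libraries lie above the f/f libraries for Casp1, Casp4 and the marker sum, while the Casp12 groups overlap.

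Further along the pyroptosis pathway, 0 of the 5 other members tested passed, against 11.0% of all features in either direction. Gsdmd, the pore protein that caspase-1 and caspase-11 cut, was at 14.6, 14.1 and 10.9 FPKM across the f/f libraries, against 17.7, 18.7 and 10.5 across d/d. Its groups overlapped, with d/d replicate 3 the lowest of all 6 libraries (log2 change 0.20 with a 95% interval from -0.35 to 0.75). Gsdme, another gasdermin, was near 2 FPKM in both groups (1.93 ± 0.410 and 1.96 ± 0.242; SD, n = 3 each). Pycard, the adaptor ASC that bridges sensors to caspase-1, was at 28.1 ± 8.80 FPKM for f/f against 32.2 ± 2.54 for d/d (SD, n = 3 each), with f/f replicate 1 lowest at 18.0. Nlrp3, the sensor of membrane damage and potassium loss, averaged 0.689 ± 0.135 FPKM with the label f/f and 1.49 ± 0.154 with d/d (SD, n = 3 each). These groups did not overlap, but the change did not pass (log2 change 0.56, limma adjusted p = 0.135), and Nlrp3 met the filter through its d/d values. Naip5, a flagellin receptor, was at 4.55 FPKM in f/f replicate 1 against 19.3 and 16.1 in the other f/f libraries, and d/d averaged 17.7 ± 5.08 (SD, n = 3). Its reads can be split with related genes of the same family, among them Naip6, so its level is uncertain. Nlrc4, the partner of the NAIP receptors, was at 0.184 to 0.590 FPKM in f/f and 0.542 to 1.10 in d/d and was not tested.

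Among the 4 other caspases followed, 1 passed, as higher, with 6.04% of all features called higher. Casp8, the initiator caspase of death receptors, was at 16.8, 20.1 and 19.1 FPKM across the f/f libraries, against 35.5, 29.7 and 34.0 across d/d, a 1.77-fold higher mean with no overlap (log2 change 0.79, SE 0.12, limma adjusted p = 0.0128). Without f/f replicate 2 the call was just missed (limma adjusted p = 0.0502), and it held without each other single library. Casp9, the initiator of the mitochondrial route, was at 9.71 ± 1.22 FPKM for f/f against 7.90 ± 0.725 for d/d (SD, n = 3 each). All 3 Casp9 values were lower in d/d, yet the change did not pass (log2 change -0.26, limma adjusted p = 0.247). Casp2, a caspase linked to p53 and chromosome number, was at 15.4 ± 2.19 and 14.4 ± 0.0988 FPKM, and Casp6, an effector caspase, at 31.3 ± 6.89 and 31.0 ± 6.15 (f/f and d/d, SD, n = 3 each). Their 95% intervals ran from -0.38 to 0.21 and from -0.50 to 0.48 on the log2 scale.

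The gene next to Casp8 had lower values under the d/d label, short of the threshold. Cflar encodes c-FLIP, a caspase-like protein without protease activity that blocks caspase-8, and it ends 36489 bases before Casp8 on chromosome 1 with 0 protein-coding genes between them. Cflar was at 32.8, 30.7 and 41.2 FPKM across the f/f libraries, against 28.2, 28.5 and 25.2 across d/d. Every d/d value lay below every f/f value, but the change did not pass (log2 change -0.33 with a 95% interval from -0.65 to -0.02, limma adjusted p = 0.154). In f/f Cflar was above Casp8 in each library, and in d/d Casp8 was above Cflar in each library, as levels per kilobase.

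Of the necroptosis genes 1 of 3 passed, as higher, against 6.04% called higher over all features. Ripk1, the kinase that passes death receptor signals to survival, apoptosis or necroptosis, was at 12.4, 11.6 and 12.2 FPKM across the f/f libraries, against 17.6, 18.7 and 16.1 across d/d, 1.45-fold higher (log2 change 0.50, SE 0.10, limma adjusted p = 0.0314). The libraries of each group lay close together. Ripk3, the kinase that activates MLKL, was at 1.24, 1.47 and 2.53 FPKM across the f/f libraries, against 3.59, 3.82 and 4.20 across d/d. It was 2.21-fold higher without overlap and narrowly missed the threshold (log2 change 0.85, limma adjusted p = 0.0533). Mlkl, the membrane-piercing effector, varied widely within both groups, with means of 2.59 ± 1.24 FPKM for f/f and 3.63 ± 1.47 for d/d (SD, n = 3 each). The Ripk1 call held when f/f replicate 1 was left out and was missed without any other single library (limma adjusted p from 0.0580 to 0.122). The start of Ripk1 overlaps Serpinb6a on the other strand (81.4 and 70.0 FPKM in f/f and d/d), and without a stated strand setting their reads there cannot be told apart.

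In the BCL2 family 3 of 12 members passed, all higher, and 6.04% of all features tested were called higher. The 3 are death-promoting, as are all but 3 of the 12. Outside the members, the protective A1 genes Bcl2a1a and Bcl2a1b were also called higher, as given below. Bak1, which encodes the pore-forming effector BAK, was at 16.8, 15.5 and 14.3 FPKM across the f/f libraries, against 23.1, 24.2 and 23.1 across d/d, 1.51-fold higher (log2 change 0.57, SE 0.10, limma adjusted p = 0.0196). Bax, the other effector, was at 42.9, 55.4 and 59.4 FPKM across the f/f libraries, against 83.4, 59.5 and 77.2 across d/d. Its groups were separated only by the narrow gap between f/f replicate 3 and d/d replicate 2, and it did not pass (log2 change 0.47, limma adjusted p = 0.130). Bax was the more abundant effector in all 6 libraries. The overlapping antisense-strand gene Ggnbp1 was at 6.18 and 5.46 FPKM (f/f and d/d) beside Bak1, and Bcl2l13 overlaps the end of Bid on the other strand (7.52 and 7.09 FPKM).

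Of 7 BH3-only genes, which encode the sensors that trigger BAX and BAK, 2 rose, and 6.04% of all features tested were called higher. Bik, found at the endoplasmic reticulum, was at 6.40, 5.26 and 7.25 FPKM across the f/f libraries, against 15.6, 10.5 and 12.9 across d/d, 2.06-fold higher (log2 change 0.93, SE 0.18, limma adjusted p = 0.0241). Bid, which caspase-8 cuts to carry a receptor signal to mitochondria, was at 8.71, 7.47 and 7.25 FPKM across the f/f libraries, against 13.5, 11.8 and 10.7 across d/d, 1.53-fold higher (log2 change 0.56, SE 0.13, limma adjusted p = 0.0446). Both genes had every d/d library above every f/f library. Bbc3, which encodes the p53 target PUMA, was at 10.9, 15.1 and 11.5 FPKM across the f/f libraries, against 7.62, 8.75 and 6.80 across d/d, 1.62-fold lower and just short of the threshold (log2 change -0.62, limma adjusted p = 0.0551). Pmaip1, which encodes the p53 target NOXA, was at 0.751, 0.851 and 0.286 FPKM across the f/f libraries, against 2.02, 2.49 and 1.65 across d/d. The difference had the opposite direction to that of Bbc3 and did not pass (log2 change 0.92, limma adjusted p = 0.0600), and Pmaip1 met the filter through its d/d values. Bcl2l11 (BIM, a broad activator) was at 6.52 ± 1.22 and 9.31 ± 0.857 FPKM (SD, n = 3 each; limma adjusted p = 0.110) without overlap. Bad, which growth factor kinases silence, and Bmf, which is tied to the cytoskeleton, had log2 changes of -0.08 and -0.00097 with overlapping groups.

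The protective BCL2 genes gave 0 calls of 3, where 11.0% of all features were called, and no common direction. Bcl2 was at 15.6, 14.1 and 15.3 FPKM across the f/f libraries, against 12.1, 10.9 and 10.7 across d/d, 1.34-fold lower with no overlap (log2 change -0.39, limma adjusted p = 0.0648). Mcl1, a short-lived protector and the most abundant member, was at 80.4, 67.3 and 78.9 FPKM across the f/f libraries, against 90.0, 98.0 and 95.7 across d/d (log2 change 0.32, limma adjusted p = 0.0984). Bcl2l1, which encodes BCL-XL, was at 60.8 ± 3.15 and 53.1 ± 5.87 FPKM (SD, n = 3 each) with overlapping groups. Of the BCL2-family calls, those of Bak1 and Bid held without f/f replicate 1 and were missed without any other single library (limma adjusted p from 0.0554 to 0.0840 for Bak1 and from 0.0731 to 0.146 for Bid), and that of Bik was missed without replicate 2 or 3 of f/f or replicate 1 or 3 of d/d (0.0562 to 0.0905). With no filter on low values Bid and Bik missed the threshold (limma adjusted p = 0.0766 and 0.0510).

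The inhibitors of caspases gave 0 calls of 4, and the apoptosome gave 0 of 2, with 11.0% of all features called. Xiap, the direct inhibitor of caspases, was at 28.3 ± 0.797 FPKM for f/f against 25.4 ± 0.965 for d/d (SD, n = 3 each), and Birc2 (cIAP1, a ubiquitin ligase on RIPK1) at 22.4 ± 0.521 and 18.9 ± 0.798. Both were lower in every d/d library than in any f/f library, by log2 changes of -0.15 and -0.24, and did not pass (limma adjusted p = 0.319 and 0.141). Birc3 (cIAP2), an NF-kB target that lies 11634 bases from Birc2 on chromosome 9, was at 17.2 ± 3.62 and 22.0 ± 3.13 FPKM with overlapping groups. Apaf1, the scaffold of the apoptosome, was at 5.07 ± 0.642 and 7.31 ± 1.90 FPKM, and Diablo, the mitochondrial antagonist of XIAP, at 36.4 ± 5.09 and 37.4 ± 2.60 (SD, n = 3 each). Groups overlapped for both.

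**Figure D3:**
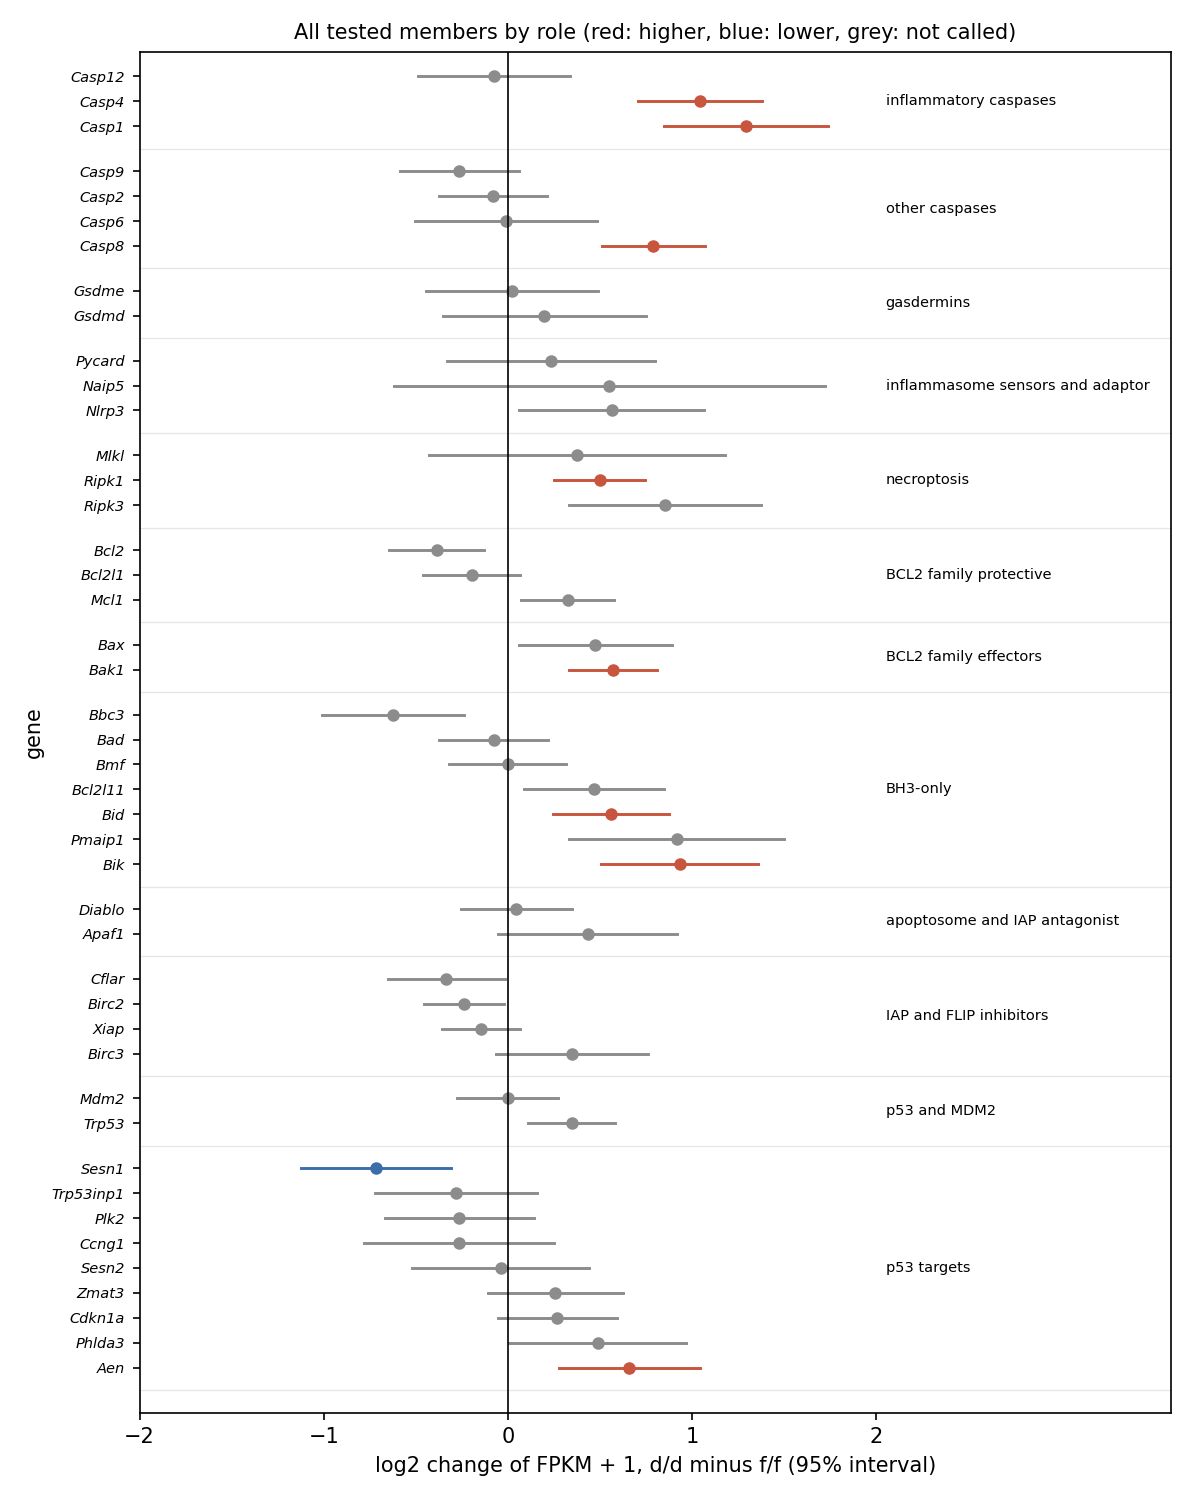
Log2 change of FPKM + 1, d/d minus f/f, with its 95% interval from limma, for the 44 tested members grouped by role. Red marks the 8 members called higher, blue the 1 called lower and grey the 35 not called. The reds lie among caspases, Ripk1 and the death-promoting BCL2 family, with Aen among the p53 targets.

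The 11 members grouped under p53 had a median log2 change of -0.00093, with 1 called higher and 1 lower. Over all features 6.04% were called higher and 4.97% lower. The p53 targets Bbc3 and Pmaip1 (log2 changes -0.62 and 0.92, neither called) were counted with the BH3-only genes and not here. Trp53 was at 32.4, 33.3 and 31.3 FPKM across the f/f libraries, against 37.6, 42.8 and 44.0 across d/d, 1.28-fold higher without overlap, and did not pass (log2 change 0.35 with a 95% interval from 0.11 to 0.58, limma adjusted p = 0.0709). Mdm2, a p53 target whose product destroys p53, was at 28.8 ± 3.80 and 28.7 ± 0.182 FPKM (SD, n = 3 each; 95% interval from -0.27 to 0.27). Cdkn1a, the p21 gene that halts the cell cycle, was at 19.2 ± 2.09 and 23.3 ± 3.07 FPKM (SD, n = 3 each), and its groups overlapped (log2 change 0.27 with a 95% interval from -0.06 to 0.59). Without both replicates 1 its log2 change was 0.45, short of the threshold (limma adjusted p = 0.0770).

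The 2 p53 targets that passed went in opposite directions. Aen, a nuclease induced in p53-driven apoptosis, was at 8.46, 11.3 and 12.3 FPKM across the f/f libraries, against 19.6, 16.6 and 15.9 across d/d, 1.62-fold higher (log2 change 0.66, SE 0.16, limma adjusted p = 0.0479). Sesn1, a sestrin that restrains mTORC1 growth signalling, was at 69.4, 46.9 and 48.9 FPKM across the f/f libraries, against 35.3, 28.8 and 34.0 across d/d, 1.68-fold lower (log2 change -0.72, SE 0.17, limma adjusted p = 0.0448). Groups did not overlap for either gene. Aen missed the threshold without any single library (limma adjusted p from 0.0609 to 0.123), and Sesn1 without any but f/f replicate 1 (0.0838 to 0.122). Both also missed it with no filter on low values (limma adjusted p = 0.0823 for Aen and 0.0771 for Sesn1) and with no variance trend (0.0580 and 0.0588), and Aen with quantile normalization (0.0550).

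The other 7 p53 targets did not pass. Ccng1 (cyclin G1), the most abundant of them, was at 85.2 ± 22.2 FPKM for f/f against 69.5 ± 9.51 for d/d (SD, n = 3 each), with f/f replicate 1 far below the other f/f libraries at 59.9. Its log2 change of -0.26 was -0.56 without both replicates 1, short of the threshold (limma adjusted p = 0.0878). Phlda3, which competes with AKT at the membrane, was at 33.6 ± 8.97 and 46.9 ± 6.96 FPKM with overlapping groups (limma adjusted p = 0.164). Trp53inp1, a stress protein of autophagy and death, was at 37.6 ± 10.6 and 30.0 ± 1.02 FPKM. Its f/f replicate 1 was at 49.8 against 31.6 and 31.4, and its log2 change of -0.28 was -0.07 without both replicates 1. Sesn2, the other sestrin followed, Zmat3, an RNA-binding p53 target, and Plk2, a polo-like kinase, had log2 changes of -0.04, 0.26 and -0.26 with overlapping groups.

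Sequences with the p53 half-site, the decamer that 1 pair of p53 subunits contacts, are shown for 6 of these genes because the genes share a regulator by name and differed in direction. The half-site, searched by its standard degenerate consensus, which reads alike on both strands, was in 9 of the 57 member windows (15.8%) and in 7.13% of all windows. A full site (half-sites at most 13 bases apart) was in 1 member window, of Cdkn1a, and in 0.0639% of all windows. Half-sites are in capitals, each sequence runs 5′ to 3′ on the gene's strand, and the build is GRCm38.p6 (RefSeq).
Cdkn1a (chr17:29090901-29090942, plus strand): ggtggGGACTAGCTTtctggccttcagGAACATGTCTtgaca
Mdm2 (chr10:117710925-117710954, minus strand): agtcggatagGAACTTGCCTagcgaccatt
Ccng1 (chr11:40755452-40755481, minus strand): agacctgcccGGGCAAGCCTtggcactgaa
Bax (chr7:45467080-45467109, minus strand): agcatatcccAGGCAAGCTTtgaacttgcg
Aen (chr7:78895927-78895956, plus strand): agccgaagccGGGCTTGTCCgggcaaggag
Sesn1 (chr10:41887256-41887285, plus strand): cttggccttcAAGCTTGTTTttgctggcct
The half-sites of Aen, which rose, and Sesn1, which fell, begin 121 and 173 bases before a RefSeq start (both within the gene's GENCODE span, at an alternative start), and that of Mdm2, whose group means were 28.8 and 28.7 FPKM, 186 bases before one. The remaining 3 genes with a half-site in a window were Bmf, Nlrp3 and Trp53. Matches thus lay beside 1 called gene that rose and 1 that fell, and the other genes with a match were not called. A half-site match does not show that p53 binds there, and sites outside these windows were not searched.

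Other genes of the same pathways, listed apart from the members, gave 11 higher and 1 lower among 69 tested of 81 listed, and 6.04% of all features tested were called higher and 4.97% lower. These lists too were chosen with earlier results of these data known. In the inflammasome and pyroptosis list 4 of 9 tested rose and 0 fell, and 7 of the 16 listed were below the filter. Ninj1, which ruptures the membrane of dying cells, was 1.88-fold higher, from 26.3 ± 1.69 to 49.6 ± 1.01 FPKM (SD, n = 3 per label, limma adjusted p = 0.00539), and kept its call without any single library. Naip2, a receptor of bacterial secretion rods, was 2.42-fold higher, the epithelial sensor Nlrp6 2.38-fold and Il18, a cytokine matured by caspase-1, 1.58-fold, and none of these calls held throughout. Naip2 and Il18 missed the threshold without any single library except f/f replicate 1 (limma adjusted p up to 0.0921 and 0.156), and Nlrp6 without replicate 2 or 3 of either label (up to 0.0846). In the death receptor list 2 of 9 tested rose and 0 fell. Tnfsf10, the ligand TRAIL, was 2.25-fold higher and missed the threshold without any single library (limma adjusted p from 0.0501 to 0.132), and Tradd, an adaptor of the TNF receptor, was 1.83-fold higher and missed it without replicate 2 or 3 of f/f or replicate 1 or 2 of d/d (0.0518 to 0.0605).

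In the rest of the BCL2 family 2 of 9 tested rose and 0 fell, against 6.04% higher and 4.97% lower over all features. Both encode A1, a protector found mainly in blood-derived cells: Bcl2a1b was 4.12-fold higher, from 5.25 ± 1.17 to 21.6 ± 2.16 FPKM (SD, n = 3 per label, limma adjusted p = 0.00374), and Bcl2a1a 3.21-fold. Bcl2a1a averaged 0.932 ± 0.285 FPKM for f/f against 2.99 ± 0.656 for d/d (SD, n = 3 each), so it met the filter of 1 FPKM through its d/d values. Bcl2a1a lost its call without any single library (limma adjusted p up to 0.105) while Bcl2a1b kept it without each, and reads can be split among these near-identical copies. The macrophage marker sum given above moved with them, and its part was not tested.

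Of the p53 pathway beyond the members, 34 genes were tested and 3 passed, a share no higher than the 11.0% called over all features. Among 23 other p53 targets, all tested, 2 rose and 0 fell. Rps27l, a ribosomal protein-like gene, was 1.62-fold higher, from 203 ± 20.9 to 330 ± 33.2 FPKM (SD, n = 3 per label, limma adjusted p = 0.0218), and missed the threshold without replicate 2 of f/f or replicate 2 or 3 of d/d (0.0670 to 0.0923). Psrc1, a spindle protein gene, was 2.94-fold higher and missed it without any single library except f/f replicate 1 (limma adjusted p from 0.0800 to 0.125). Among 11 tested regulators of p53, 0 rose and 1 fell: Trp53bp1, a DNA break repair factor that binds p53, was 1.38-fold lower (19.8 ± 0.472 and 14.3 ± 0.523 FPKM; SD, n = 3 each; limma adjusted p = 0.0329), missing the threshold without any single library except f/f replicate 1 (0.0748 to 0.130).

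**Figure D4:**
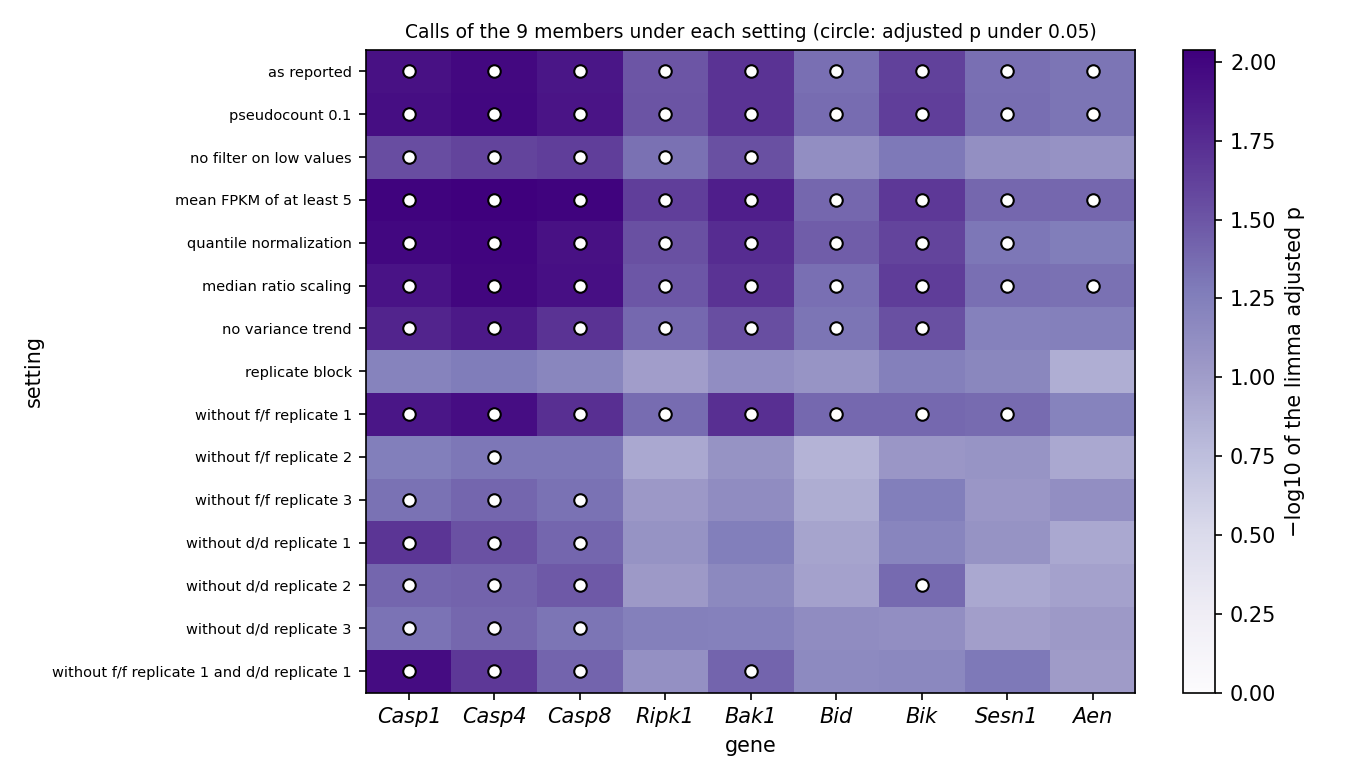
Shade gives −log10 of the limma adjusted p for the 9 members called (columns) under the reported setting and each alternative (rows), and a circle marks an adjusted p under 0.05. Casp4 has a circle in every row except the replicate block, whose row has 0 circles, and Aen in the fewest rows.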

How the data were processed

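RNA was extracted with TRIzol and sequenced from TruSeq libraries, per the labels' protocols. Deposited tables were read as FPKM, made by the authors with Cufflinks 2.2.1 after HISAT2 2.2.1, per the submitters' processing notes; the unit is inferred from Cufflinks and from decimals with library totals that differ. The notes name builds mm9 and mm10 with no role. Annotation, filters and strand use were not given in the sources used here. Of 55483 identifiers, 99.4% were in GENCODE M21 (GRCm38), used for coordinates. Depth comes from the value of 1 fragment in low single-transcript genes (94.0% to 97.8% within 1% of the step).

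Where several rows shared 1 symbol (114 symbols), their values were added. Features averaging at least 1 FPKM were tested with limma 3.58.1 (R 4.3.3; eBayes with variance trend, two-sided) on log2(FPKM + 1), genotype as the only term. Fold changes are ratios of group mean FPKM. The test covered 15438 features and was checked on simulated data with 200 features changed per run. On those data it called 6.8% of changes of log2 size 0.5, 45% of size 1 and 84.2% of size 2, and 0.042% of unchanged features. The simulated noise was independent between features, and in the real data 1701 features were called. These rates therefore need not hold for the reported test. A missed threshold does not show that a gene is unchanged. The alternatives were pseudocount 0.1, no filter, a filter of 5 FPKM, 2 scalings, no variance trend, a replicate block and leaving libraries out. Replicates may be technical, so p-values measure the spread between samples. The members and lists were chosen with earlier results of these data known. By rule, members called are given in full, at most 3 others per role by highest mean FPKM, outside genes by up to 4 calls per list and at most 2 markers per list. Values of Nlrc4, Pmaip1, Bcl2l11, Birc3, Cdkn1a, Sesn2, Zmat3 and Plk2, of the marker Cd163, of overlapping genes, and of the genes in the closing section were added after they were seen. The result of 1 gene of the related lists is not reported here.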

Additional observations from a re-analysis of the deposited data

How the results depend on the processing

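Under a pseudocount of 0.1 and median ratio scaling the 9 members were all called again, and no called member changed direction under any alternative. With no filter on low values (26441 features tested) 1107 features, 5 members (5 higher, 0 lower) and 6 of the related genes were called, against 1701, 9 (8 and 1) and 12. A filter of 5 FPKM gave 2 members lower (Bbc3 added), and no variance trend gave 0 lower and 10 higher. With the replicate number as a block the counts were 276 features, 0 members (0 higher, 0 lower) and 2 related genes. Deviations of same-numbered libraries from their group means correlated at -0.22, -0.06 and 0.00, and no library correlated best with its own number. With 3 libraries per group such correlations cannot show whether the numbers stand for a shared batch or pairing, which the labels do not state. Without both replicates 1, 4 members were called higher and 0 lower. Leaving out 1 library gave 312 to 1798 features, 1 to 8 members (1 to 7 higher, 0 to 1 lower) and 2 to 12 related genes, lowest without f/f replicate 2. These fits have fewer samples and degrees of freedom; the cause of the other changes was not tested. The effect of depth on single genes was not tested.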

Other observations

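Naip1, a receptor of the same family as Naip5 and below the filter, was at 0.0988, 0.308 and 0.285 FPKM across f/f replicates 1 to 3, against 1.11, 1.88 and 2.17 across d/d replicates 1 to 3, groups that did not overlap. Naip6 was at 1.70, 4.12 and 4.30 FPKM across the f/f libraries, against 1.97, 2.29 and 1.69 across d/d. Its groups overlapped, with a lower mean in d/d, and reads can be split among the receptor copies. Zbp1, a nucleic acid sensor that engages RIPK3, was at 12.4, 3.67 and 4.40 FPKM across the f/f libraries, against 20.1, 29.8 and 16.1 across d/d, and did not pass (log2 change 1.68, limma adjusted p = 0.0504). It passed in 4 of 14 alternatives, among them without f/f replicate 1 (limma adjusted p = 0.00875) and without both replicates 1 (log2 change 2.19, limma adjusted p = 0.0187), and its limma adjusted p ranged up to 0.147.

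GGACT, the letters of a common m6A site, occurred at a median of 0.992 per kilobase in the longest coding transcripts (GENCODE M21) of the 8 members called higher and at 1.15 in the 35 not called. Over all tested features with such a transcript the medians were 1.16 (863 called higher), 1.08 (682 called lower) and 1.05 (11794 not called). Letters in a transcript do not show that a site is methylated, and no test was made.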
